A study of Mus musculus with 16 samples.

Results

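Calorie restriction was set against the control diet in the livers of 8 male C57BL/6J mice, 4 fed a 30% calorie restricted (CR) diet and 4 fed the control (C) diet. These were all CR and all C livers among the 16 livers of the study, each from 1 mouse on 1 array. The other 8 mice received a medium fat (MF) diet with 25% of its energy as fat or an intermittent (INT) diet that alternated weekly between MF and a stronger restriction, and they entered the fit to share its estimate of the spread. Diets ran from 9 weeks to 12 months of age. Before sacrifice every mouse, CR and C alike, was fasted for 4 h, gavaged, and fasted for another 6 h. The gavage was WY14,643 (Wy, 160 mg/kg), an agonist of the fatty acid receptor PPARα, in 0.5% carboxymethyl cellulose, or this solvent alone (mock). In CR and in C, 2 mice were mock-treated and 2 Wy-treated, and within each treatment 1 mouse came from the high and 1 from the low body weight class of its own diet group, so a CR mouse of high body weight need not have weighed as much as a C mouse of that class. CR-fed mice received a weighed portion each afternoon and C-fed mice ate ad libitum, so restriction and the timing of the last meal cannot be told apart. A liver is named by its weight class and then its diet and gavage, as in high CR mock. In whole liver, fewer cells of a type and less RNA per cell cannot be told apart either.

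The liver answers the fed and the fasted state through a small set of hormones. Insulin after a meal drives glycogen and fatty acid synthesis, while glucagon and glucocorticoids in fasting drive the making of glucose from amino acids. Cholesterol synthesis is governed by SREBP2, a membrane-bound factor that is cut free when sterols run low and that acts on nearly every enzyme of the pathway. In rodents the liver is also strongly sexually dimorphic. Pulses of growth hormone in males and its steadier secretion in females, read through the kinase JAK2 and the factor STAT5B, set male-enriched and female-enriched genes, and in mice both are dominated by cytochromes P450, steroid enzymes, urinary proteins and transporters.

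The deposited values were log2 intensities, and a gene was called higher or lower at an adjusted p under 0.05 in limma, fitted over all 16 livers with terms for diet, treatment and weight class. Of 14275 genes tested, 1501 (10.5%) were called, 648 higher (4.54%) and 853 lower (5.98%) in CR livers, against a median log2 change of -0.0118 over all genes. At least 2-fold differences were fewer, with 68 genes higher (0.476%) and 82 lower (0.574%). The 4 CR livers lay wholly apart from the 4 C livers in 1860 genes (13%), above them in 814 (5.7%) and below them in 1046 (7.33%). The root-mean-square distance of a CR to a C liver was 0.394 log2 (median of 16 pairs, range 0.305 to 0.516), against medians of 0.333 between CR livers and 0.330 between C livers. These pairs are unlike, since every pair within a diet differed in treatment, weight class or both. Within a diet, pairs of like treatment lay at 0.212 to 0.290. CR and C livers of like treatment and weight class lay at 0.305 to 0.399. Of 8 hepatocyte markers 0 were called, with albumin (Alb) at 0.03 ± 0.05 log2 (SE) and the hepatocyte factor Hnf4a at 0.10 ± 0.06. Alb read 13.35 to 13.50 in the CR and C livers, near the top of the array's range.

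The largest rise and the largest falls lay in genes that mark male and female mouse liver. Of 13 female-enriched genes tested, 9 were higher and 0 lower in CR livers, beside 4.54% of all genes higher. Their median log2 change was 1.09, beside -0.0118 over all genes. Cyp2b13, a cytochrome P450 of female liver, read 10.59, 10.90, 10.33 and 10.46 in the high mock, high Wy, low mock and low Wy CR livers, against 5.22, 3.81, 3.33 and 3.62 in the C livers in the same order. The groups did not overlap, and 3 of the 4 C livers were under the intensity of 20 (4.32 log2) used as the filter. The fitted difference was 6.58 ± 0.56 log2 (SE, n = 4 mice each; limma's adjusted p = 3.61e-05), and with values under the filter set to it the level was at least 65.1-fold higher. Slc22a26 and Slc22a27 are organic anion transporters of female mouse liver and kidney. Slc22a26 read 9.18, 10.23, 11.44 and 7.74 in CR livers against 5.31, 5.66, 5.30 and 5.66 in C livers (4.17 ± 0.54, 18-fold, adjusted p = 0.000504). Its 4 C livers lay close together, while among CR livers the low mock one was the highest and the low Wy one the lowest. Slc22a27 was 8.04-fold higher (3.01 ± 0.34, adjusted p = 0.000241). Hao2, a peroxisomal oxidase of long-chain hydroxy acids, was higher by 1.83 ± 0.31, and the flavin monooxygenase Fmo2 by 1.16 ± 0.18. For Hao2 the low C mock and low C Wy livers, at 3.75 and 3.78, were under the filter. Cux2, a repressor of male-biased genes that is itself confined to female liver in mice, read 5.55, 5.14, 6.52 and 5.02 in CR livers against 4.62, 4.79, 4.64 and 4.87 in C livers (0.82 ± 0.23, adjusted p = 0.0394), and this call was lost without any 1 of 5 livers (adjusted p up to 0.115).

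Male-enriched genes lay lower. Of 27 tested, 0 were higher and 21 lower in CR livers, beside 5.98% of all genes lower. Their median was -0.93 log2. Cyp4a12a, a fatty acid hydroxylase of male liver that answers androgen and growth hormone, read 7.27, 7.59, 4.66 and 8.07 in CR livers and 11.94, 12.43, 11.99 and 12.20 in C livers. All CR livers were far below all C livers, and the low CR mock liver was the lowest by more than 2 log2. Cyp4a12a fell by 5.24 ± 0.47 log2 (37.9-fold, adjusted p = 5.14e-05) and its near-identical neighbour Cyp4a12b fell by 5.20 ± 0.50, and probes may not separate the pair, nor other members of the urinary protein, Cyp2b and Slc22 families. The bile acid and steroid uptake transporter Slco1a1 read 8.96, 4.80, 4.93 and 7.91 in CR livers and 10.08, 10.12, 11.49 and 11.05 in C livers (-4.03 ± 0.88, adjusted p = 0.0113). The major urinary proteins, pheromone carriers made by male liver, were among the lower genes. Mup6 fell by 3.25 ± 0.53 log2, with 6.09 in the low CR mock liver and 8.70 to 9.81 in the other CR livers against 11.51 to 12.11 in C livers. Mup20, near the top of the scale in every liver, fell by 0.90 ± 0.17 (adjusted p = 0.0525 on the 8 CR and C arrays alone). The elongase Elovl3 (-2.45 ± 0.48), the complement regulator Susd4 (-2.80 ± 0.38), the sulfotransferase Sult5a1 (-1.46 ± 0.23), the oxysterol hydroxylase Cyp7b1 (-1.25 ± 0.27) and the testosterone hydroxylase Cyp2d9 (-0.93 ± 0.21) were called lower too, Cyp2d9 not without the high CR Wy liver (adjusted p = 0.0545). Serpina4-ps1, a serpin pseudogene of the same list, fell by 3.64 ± 0.89 (adjusted p up to 0.0727 without any 1 of 3 livers). Gstp1, an abundant glutathione transferase of male liver, stood at 0.02 ± 0.13 and was not called.

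Cyp2b9 and Hsd3b5 are given by body weight class, since their C livers of high and low body weight lay far apart. Cyp2b9, a female-enriched P450, read 12.46 and 12.43 in the high mock and high Wy CR livers and 12.33 and 12.30 in the low ones, against 11.95 and 11.93 in the high and 8.71 and 8.30 in the low C livers. All 4 CR livers thus lay together at the top, the heavy C mice just under them and the light C mice more than 3 log2 lower. CR minus C was 0.51 among high and 3.81 among low body weight mice, and 2.16 ± 0.58 overall (adjusted p = 0.0312). Hsd3b5, a steroid dehydrogenase of adult male liver, ran the other way, at 4.73, 3.35, 4.00 and 3.79 in CR livers against 6.69 and 5.43 in high and 11.06 and 8.98 in low C livers. Here 3 CR livers were under the filter, and the overall difference was -4.07 ± 1.05 (adjusted p = 0.0258), at least 12.3-fold lower with values under the filter set to it. Neither dependence on body weight was called over all genes (unadjusted p = 0.000165 for Cyp2b9 and 0.00983 for Hsd3b5). Both overall calls were lost without any 1 of 5 livers, with adjusted p up to 0.0988 for Cyp2b9 and 0.0821 for Hsd3b5.

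**Figure D1:**
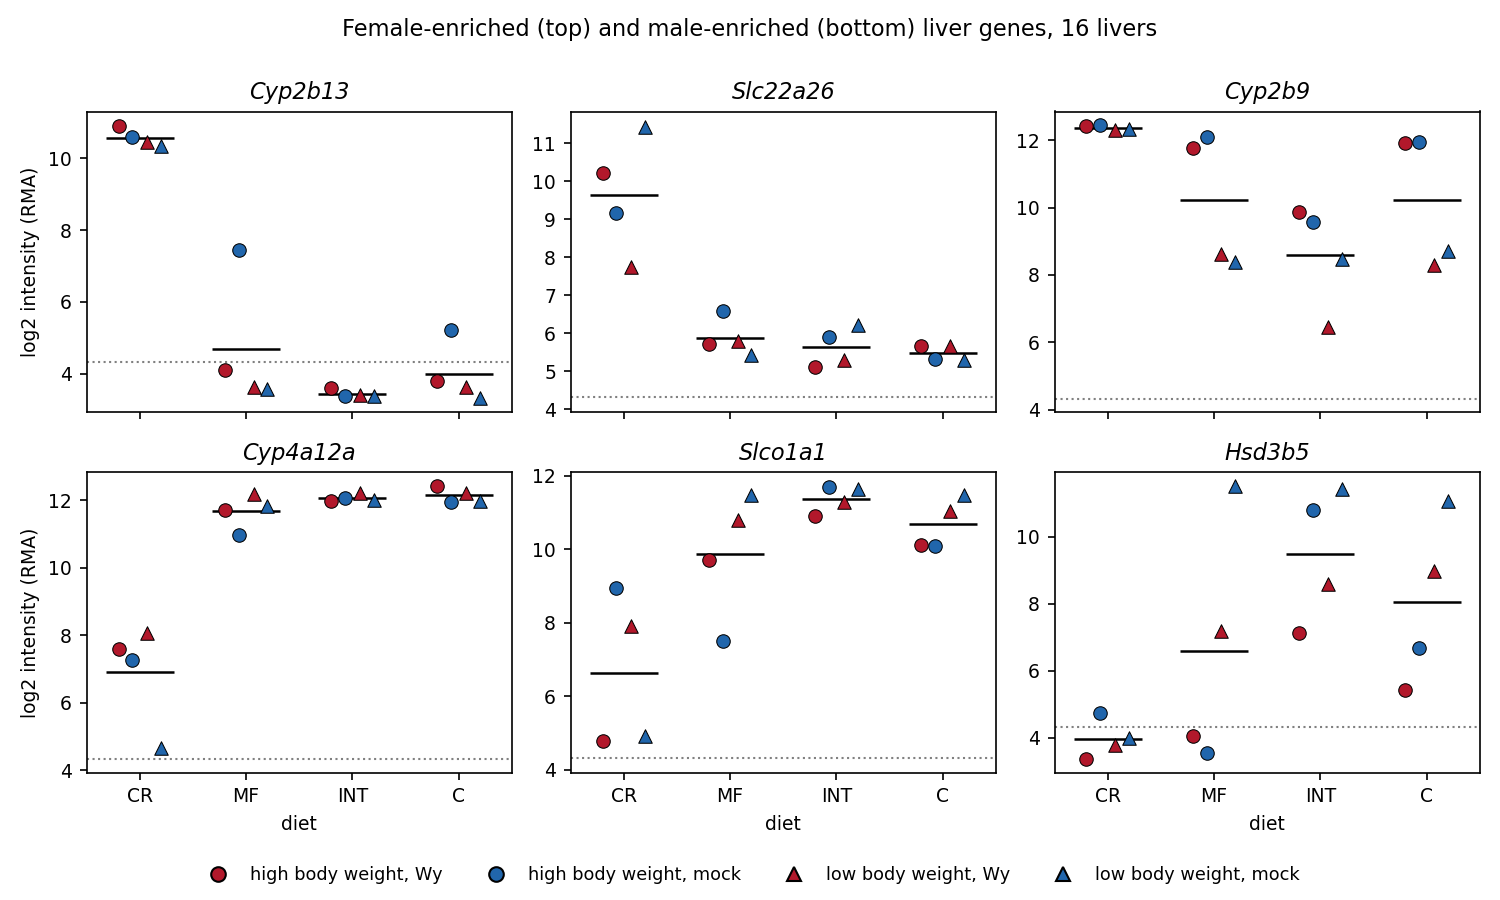
Log2 intensity of 3 female-enriched genes (top) and 3 male-enriched genes (bottom) in each of 16 livers by diet; circles are high and triangles low body weight mice, red is Wy and blue mock, bars are diet means and the dotted line is the filter at 4.32 log2. The 4 CR livers lie apart from the 4 C livers in all 6 genes, while in Cyp2b9 and Hsd3b5 the heavy C mice (circles) lie nearer to CR than the light ones.

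The MF and INT diets are given beside CR for some of the same genes, and all 3 contrasts share the C livers. Cyp2b13 was 0.69 log2 above C in MF and 0.55 below it in INT, with the high MF mock liver at 7.45 and the other 7 livers of both diets at 3.39 to 4.10. Cyp4a12a differed from C by -0.46 in MF and by -0.08 in INT, and Slc22a26 by 0.39 and 0.15. Over all genes, MF minus C gave 0 calls in limma (628 genes with an unadjusted p under 0.05) and INT minus C 1 call (0.00701%; 1405 genes with an unadjusted p under 0.05), while CR minus MF gave 1807 (12.7%) and CR minus INT 1406 (9.85%). The INT mice had been restricted in alternate weeks and were sacrificed in an MF week. The 2 high body weight INT arrays carried the array code prefix G073 and all other arrays G067. Within INT, weight class and prefix cannot be told apart.

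In the growth hormone pathway itself 3 of 20 tested genes were higher, Cux2 among them, and 2 lower, beside 10.5% called over all genes. Igfbp1, the fasting-induced and insulin-repressed binding protein of IGF1, read 11.73, 12.13, 11.87 and 11.93 in CR livers against 9.81, 10.01, 10.11 and 10.41 in C livers, with no overlap (1.83 ± 0.42, 3.56-fold, adjusted p = 0.0142; 0.053 without the high C Wy liver). Igfbp2, which falls in obesity and rises in fasting, was 0.92 ± 0.25 higher, with 11.02 to 11.32 in CR livers against 9.44 and 9.88 in high and 10.91 and 10.63 in low C livers. The light C mice were thus close to CR, and the call was lost without any 1 of 5 livers (adjusted p up to 0.111). Stat5a fell by 0.69 ± 0.12 (adjusted p = 0.00263), whereas Stat5b, the form that carries the male pattern, stood at 0.01 ± 0.08 and Jak2 at -0.08 ± 0.10. The receptor Ghr was called at the threshold (-0.24 ± 0.07, adjusted p = 0.0495) and lost its call without any 1 of 7 livers (adjusted p up to 0.143). Igf1 (-0.18 ± 0.08, adjusted p = 0.165) and its carrier Igfals (-0.30 ± 0.21) were not called. The pulse-responsive feedback genes Socs2 (0.33 ± 0.45) and Cish (0.10 ± 0.62) spread too widely to call, and so did the repressor Bcl6 (-0.39 ± 0.43) and the hepatic factor Onecut1 (-0.36 ± 0.52). Each liver gives 1 time point of a pulsed signal.

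**Figure D2:**
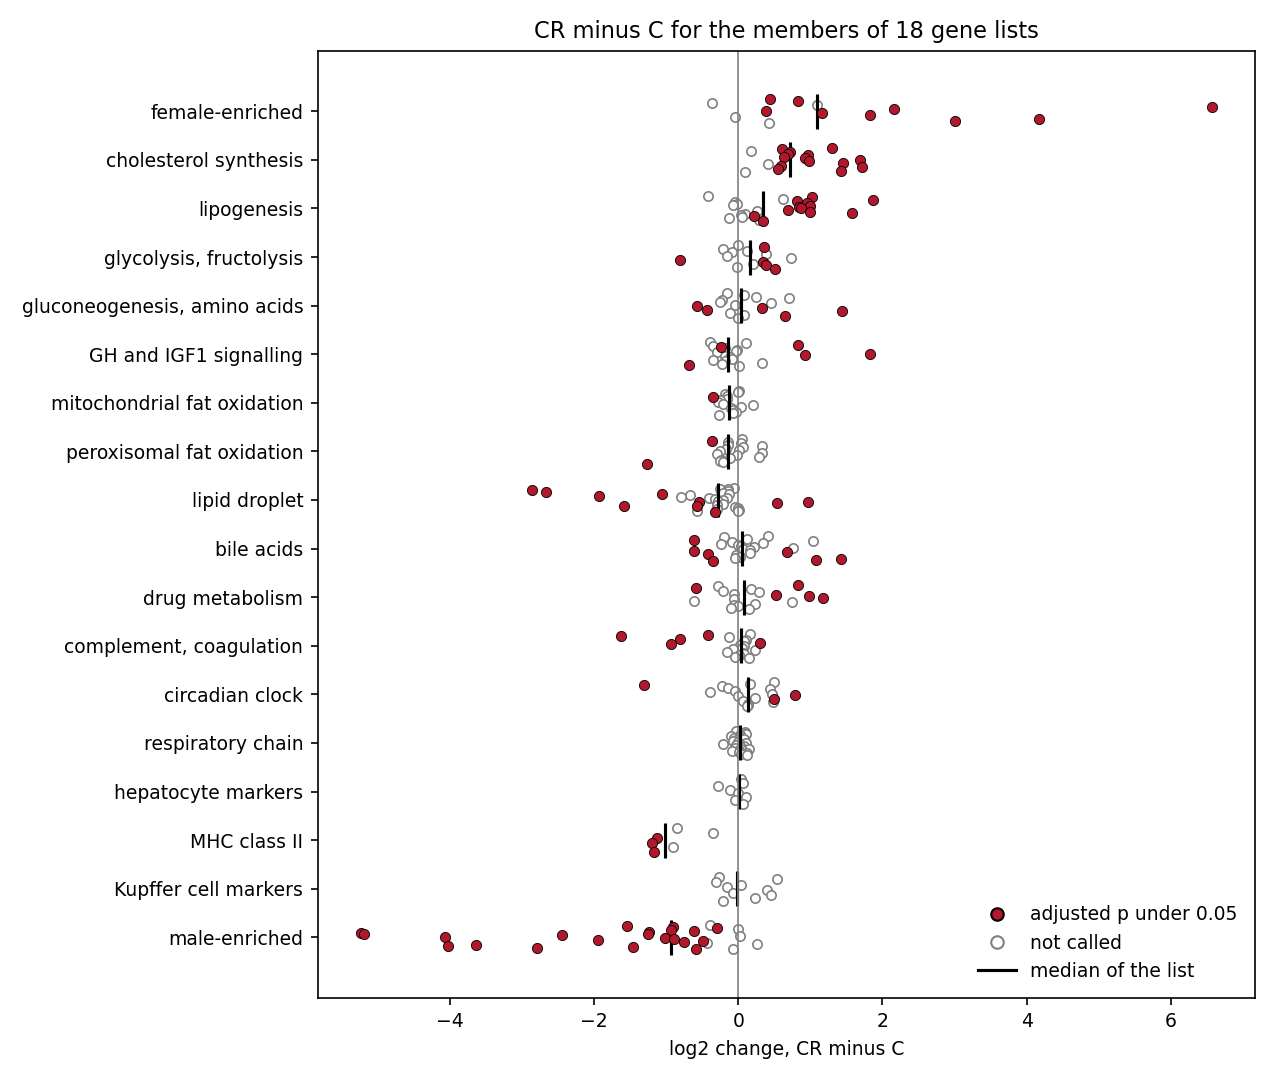
Log2 change in CR minus C (horizontal axis) for each tested member of 18 gene lists (rows); filled points passed an adjusted p of 0.05, open points did not, and the black bar is the list's median. Female-enriched, cholesterol synthesis and part of the lipogenic genes lie to the right, male-enriched, droplet and MHC class II genes to the left, and respiratory chain and hepatocyte marker genes near 0.

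Enzymes of cholesterol synthesis were higher almost throughout the pathway. Of 17 tested, 14 were called higher and 0 lower, beside 4.54% of all genes higher. All 17 had a positive sign, with a median of 0.72 log2. Pmvk, which phosphorylates mevalonate phosphate, read 9.66, 9.25, 9.47 and 9.02 in CR livers and 7.26, 7.39, 8.18 and 7.67 in C livers (1.72 ± 0.17, 3.3-fold, adjusted p = 0.000119). Lss, which folds squalene epoxide into lanosterol, read 10.76, 10.48, 10.49 and 10.04 against 8.44, 8.51, 9.23 and 8.83 in C livers (1.69 ± 0.18, 3.23-fold). In both genes the low C mock liver was the highest C liver and still under every CR liver. The decarboxylase Mvd (1.45 ± 0.25), the epoxidase Sqle, a rate-setting step (1.42 ± 0.32), and the demethylase Cyp51 (1.31 ± 0.22) were more than 2-fold higher. The synthase Hmgcs1, which opens the pathway, was 0.97 ± 0.20 higher, Msmo1 0.98 ± 0.19, Idi1 0.92 ± 0.19, Fdft1 0.72 ± 0.19, Fdps 0.69 ± 0.11, Hsd17b7 0.64 ± 0.11, Dhcr7 0.61 ± 0.09, Nsdhl 0.59 ± 0.14 and Sc5d 0.55 ± 0.09. Of these, Nsdhl and Fdft1 lost the call without any 1 of 3 and 5 livers (adjusted p up to 0.0624 and 0.0962). The list's median was 0.92 among high and 0.54 among low body weight mice, and for Lss the changes were 2.15 and 1.23 (unadjusted p = 0.00222 for the difference, not called over all genes).

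Among genes that sense and move sterols, 3 of 16 were called, all higher, beside 10.5% of all genes called. Insig1, the SREBP target that holds SREBP in the endoplasmic reticulum, read 12.05, 11.87, 11.95 and 11.50 in CR livers against 10.47, 10.02, 10.91 and 10.36 in C livers (1.40 ± 0.18, adjusted p = 0.000455). Srebf2, which codes for SREBP2, was 0.37 ± 0.08 higher. Insig2, the insulin-repressed sister of Insig1, ran the other way at -0.86 ± 0.27 without passing the test (adjusted p = 0.0608). INT minus C was 0.50 for Sqle, 0.50 for Cyp51, 0.59 for Msmo1, 0.23 for Hmgcs1, 0.13 for Lss and 0.04 for Pmvk. CR exceeded INT by 1.68 for Pmvk and 1.56 for Lss, while for Srebf2 the difference was 0.02.

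Promoters of 3 of these genes, which rose together, and of Slc22a26, the second highest rise, are shown. They are RefSeq sequences of GRCm38.p6, 250 bases before to 50 after the annotated start, written 5′ to 3′ along the gene's own strand. Capitals mark matches on either strand to the sterol response element (TCACNCCAC, in Hmgcs1 only), the CCAAT box (CCAAT, or ATTGG on the other strand, in all 4), the E-box (CACGTG, in Insig1 only), and the D-box (TTATGNAA) and the STAT5 motif (TTCNNNGAA), both in Slc22a26 only. No marked matches overlap.
Hmgcs1 (chr13:119690101-119690400, plus strand): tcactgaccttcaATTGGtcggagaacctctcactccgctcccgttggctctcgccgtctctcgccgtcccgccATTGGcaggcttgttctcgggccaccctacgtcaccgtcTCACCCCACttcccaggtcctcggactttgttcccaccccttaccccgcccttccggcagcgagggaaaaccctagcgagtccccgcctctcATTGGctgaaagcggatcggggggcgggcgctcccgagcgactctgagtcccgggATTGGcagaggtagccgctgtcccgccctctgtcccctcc
Lss (chr10:76531355-76531654, plus strand): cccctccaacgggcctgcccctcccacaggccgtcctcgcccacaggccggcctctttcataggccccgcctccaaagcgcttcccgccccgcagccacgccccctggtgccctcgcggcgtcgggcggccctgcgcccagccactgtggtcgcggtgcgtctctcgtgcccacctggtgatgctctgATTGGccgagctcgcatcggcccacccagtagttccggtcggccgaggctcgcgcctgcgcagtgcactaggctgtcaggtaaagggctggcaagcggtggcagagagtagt
Insig1 (chr5:28071162-28071461, plus strand): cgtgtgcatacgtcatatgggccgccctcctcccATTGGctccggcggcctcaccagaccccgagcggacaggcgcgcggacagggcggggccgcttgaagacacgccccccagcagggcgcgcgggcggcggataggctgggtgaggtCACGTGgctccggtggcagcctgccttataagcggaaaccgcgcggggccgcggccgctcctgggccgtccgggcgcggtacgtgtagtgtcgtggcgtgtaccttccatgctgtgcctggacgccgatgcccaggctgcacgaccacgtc
Slc22a26 (chr19:7802618-7802917, minus strand): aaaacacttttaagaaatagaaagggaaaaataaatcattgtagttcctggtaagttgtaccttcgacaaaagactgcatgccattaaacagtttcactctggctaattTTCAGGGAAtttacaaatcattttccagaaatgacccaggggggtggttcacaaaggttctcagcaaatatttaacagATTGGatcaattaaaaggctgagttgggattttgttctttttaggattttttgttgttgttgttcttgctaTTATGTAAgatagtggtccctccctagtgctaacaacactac
The sterol response element of Hmgcs1 began 137 bases before the start site, with CCAAT boxes at 237, 176 and 45 bases before it. Over all 27025 gene symbols with a promoter in the table, 1.436% held a match to the sterol response element in any of their promoters, 41.058% to the CCAAT box, 8.093% to the E-box, 3.993% to the D-box and 9.554% to the STAT5 motif. Of the 14 called cholesterol enzymes, 11 had a promoter in the table, and of these 11 held a CCAAT box, 1 a sterol response element (Hmgcs1) and 3 an E-box (Dhcr7, Hsd17b7 and Sc5d). The 3 tested enzymes that were not called held a CCAAT box too. Of the 12 called lipogenic genes 8 held a CCAAT box. Among called female-enriched genes with a promoter, 2 of 8 held a D-box (Hao2 and Slc22a26) and 2 a STAT5 motif (Fmo2 and Slc22a26), and among called male-enriched genes 1 of 14 held a D-box (Ugt2b1) and 2 a STAT5 motif (Keg1 and Nox4). The CCAAT box was looked for after the values were seen, genes with several promoters have more chances of a match, and a match is a run of letters and not a bound site.

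About as many fatty acid synthesis genes were called as were not. Of 23 tested, 12 were higher and 0 lower, with a median of 0.34 log2, beside 10.5% of all genes called. Acly, which makes cytosolic acetyl-CoA from citrate, read 12.05, 11.73, 11.58 and 11.81 in CR livers against 9.93, 9.50, 10.13 and 10.14 in C livers (1.87 ± 0.20, 3.65-fold, adjusted p = 0.000163). The carboxylase Acaca (1.02 ± 0.16), the synthase Fasn (0.99 ± 0.11), the elongase Elovl6 (0.95 ± 0.15), the NADPH-producing enzymes Pgd (1.00 ± 0.14) and Me1 (0.87 ± 0.13), the acyltransferase Gpam (0.84 ± 0.12), the acetate-activating enzyme Acss2 (0.81 ± 0.15) and the lipid remodelling enzyme Pnpla3 (1.58 ± 0.26) were called higher, and in each the CR livers lay above all C livers. Acacb, the isoform that curbs fat oxidation, was at 0.62 ± 0.20 (adjusted p = 0.0652). The desaturase Scd1, at 13.39 to 13.50 in CR and 13.27 to 13.43 in C livers near the top of the array's range, was not called (0.09 ± 0.06). Neither were the regulators Srebf1 (0.05 ± 0.15), Mlxipl (0.26 ± 0.11) and Thrsp (0.29 ± 0.21). INT livers, fed ad libitum before the final fast, lay under C for Acly (-0.63), Fasn (-0.56), Elovl6 (-0.68) and Pgd (-0.63). MF livers lay under C for them too, by smaller amounts (-0.39, -0.35, -0.35 and -0.21 in the same order). CR exceeded INT by 2.50 for Acly and 1.55 for Fasn. Of 14 glycolytic and fructolytic genes, 4 were higher and 1 lower, Pklr, the liver pyruvate kinase, by 0.38 ± 0.09 (lost without the high C Wy or the low C mock liver, adjusted p up to 0.0533) and the triokinase Tkfc by 0.50 ± 0.10, whereas Pfkfb3, an activator of glycolysis, fell by 0.81 ± 0.11.

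**Figure D3:**
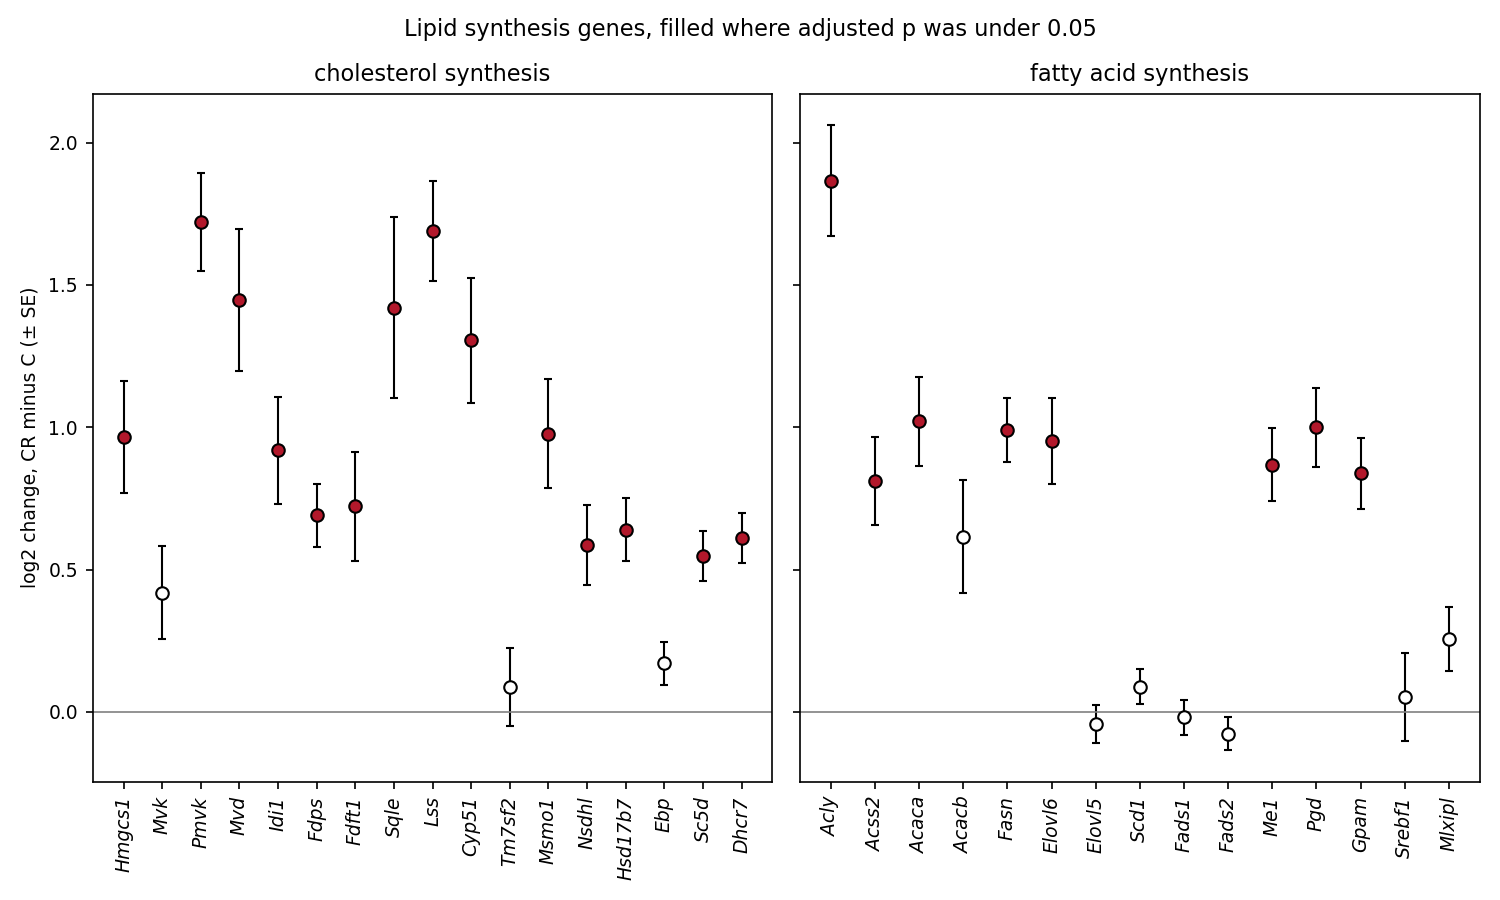
Log2 change in CR minus C with its standard error for genes of cholesterol synthesis in pathway order (left) and of fatty acid synthesis with 2 regulators (right); filled points had an adjusted p under 0.05. Pmvk (1.72), Lss (1.69) and Acly (1.87) lie highest, while the desaturase Scd1 and the regulators Srebf1 and Mlxipl are open points between 0.05 and 0.26.

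Some genes of the fasted state were higher in the same livers. Ppp1r3g, a fasting-induced subunit that directs protein phosphatase 1 to glycogen, read 10.34, 10.25, 9.79 and 9.93 in CR livers. In C livers it read 8.21 and 8.34 in the Wy mice and 6.37 and 6.65 in the mock mice. The difference was 2.68 ± 0.34 (6.43-fold, adjusted p = 0.000443), 1.81 in Wy and 3.55 in mock mice. It was the exception in its list, where 1 of 16 glycogen genes was higher and 1 lower, beside 10.5% of all genes called. The lower one, the liver glycogen synthase Gys2 (-0.28 ± 0.08, adjusted p = 0.0471), lost its call without any 1 of 7 livers (adjusted p up to 0.144), and Ppp1r3b and Ppp1r3c, 2 other targeting subunits, were not called (0.34 ± 0.17 and -0.87 ± 0.27). Ppargc1a, the coactivator of gluconeogenic genes, read 10.54, 9.03, 10.67 and 9.72 in CR livers against 9.02, 8.23, 9.00 and 7.93 in C livers (1.44 ± 0.18, adjusted p = 0.000422), so the lowest CR value lay just above the highest C value. Of 16 genes for gluconeogenesis or the breakdown of amino acids, 3 were higher and 2 lower. Besides Ppargc1a the higher ones were Tat, the glucocorticoid-induced tyrosine aminotransferase (0.65 ± 0.15, not without the high CR Wy liver, adjusted p = 0.0516), and Pck1, the cytosolic PEP carboxykinase (0.32 ± 0.08, adjusted p up to 0.0607 without the high CR Wy or the high C Wy liver). The lower ones were pyruvate carboxylase, Pcx (-0.43 ± 0.07), and the ornithine aminotransferase Oat (-0.57 ± 0.13, adjusted p up to 0.0521 without the high CR Wy or the low C Wy liver). G6pc, which releases free glucose, was not called (0.25 ± 0.12, adjusted p = 0.214).

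Of 20 liver-made hormones and their receptors 2 were higher and 2 lower, beside 10.5% of all genes called. Lepr, the leptin receptor, read 10.36, 10.14, 9.97 and 10.73 in CR livers against 7.47 and 7.42 in high and 9.20 and 9.37 in low C livers (1.94 ± 0.36, 3.83-fold, adjusted p = 0.00398). The insulin receptor substrate Irs2, which is repressed by insulin, was 0.80 ± 0.17 higher and did not overlap. Inhbe, the hepatic activin E subunit, fell by 1.73 ± 0.25, at 8.84, 9.79, 8.36 and 10.67 in CR livers against 10.70, 11.52, 10.70 and 11.66 in C livers, with the low CR Wy liver almost at the C level. Fgf21, the fasting and PPARα hormone, was not called (-0.52 ± 0.26, adjusted p = 0.223) and ran at 7.15 and 7.18 in Wy and 5.19 and 5.81 in mock CR livers, against 7.85 and 7.91 in Wy and 5.88 and 5.78 in mock C livers. Klf15, a glucocorticoid-induced factor of amino acid breakdown, was 0.58 ± 0.13 higher, whereas the glucocorticoid sensor Fkbp5 stood at -0.07 ± 0.25. Bhmt, which methylates homocysteine with betaine, fell by 1.47 ± 0.28, at 12.05, 10.32, 10.91 and 11.85 in CR livers and 12.65 to 12.85 in C livers. The taurine transporter Slc6a6 was higher by 0.94 ± 0.17 and the glycine transporter Slc6a9 fell by 0.79 ± 0.14. Of 18 clock genes 2 were higher and 1 lower. Noct, a deadenylase with a strong daily rhythm, was 0.78 ± 0.13 higher, Per1 0.50 ± 0.12 higher (lost without any 1 of 3 livers, adjusted p up to 0.0585) and the repressor Bhlhe41 fell by 1.30 ± 0.18. The core factors Arntl (0.50 ± 0.42) and Cry1 (0.43 ± 0.24) were not called, and in both the low CR mock liver stood apart, at 7.67 and 8.20, against 5.27 to 5.76 and 7.04 to 7.27 in the other CR livers. Sirt1 (0.20 ± 0.09, adjusted p = 0.205) and Nampt (0.30 ± 0.13, adjusted p = 0.148), an NAD-dependent deacetylase and the enzyme of NAD salvage, were not called, and Sirt5 and Atg7 fell by 0.49 ± 0.09 and by 0.48 ± 0.09.

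**Figure D4:**
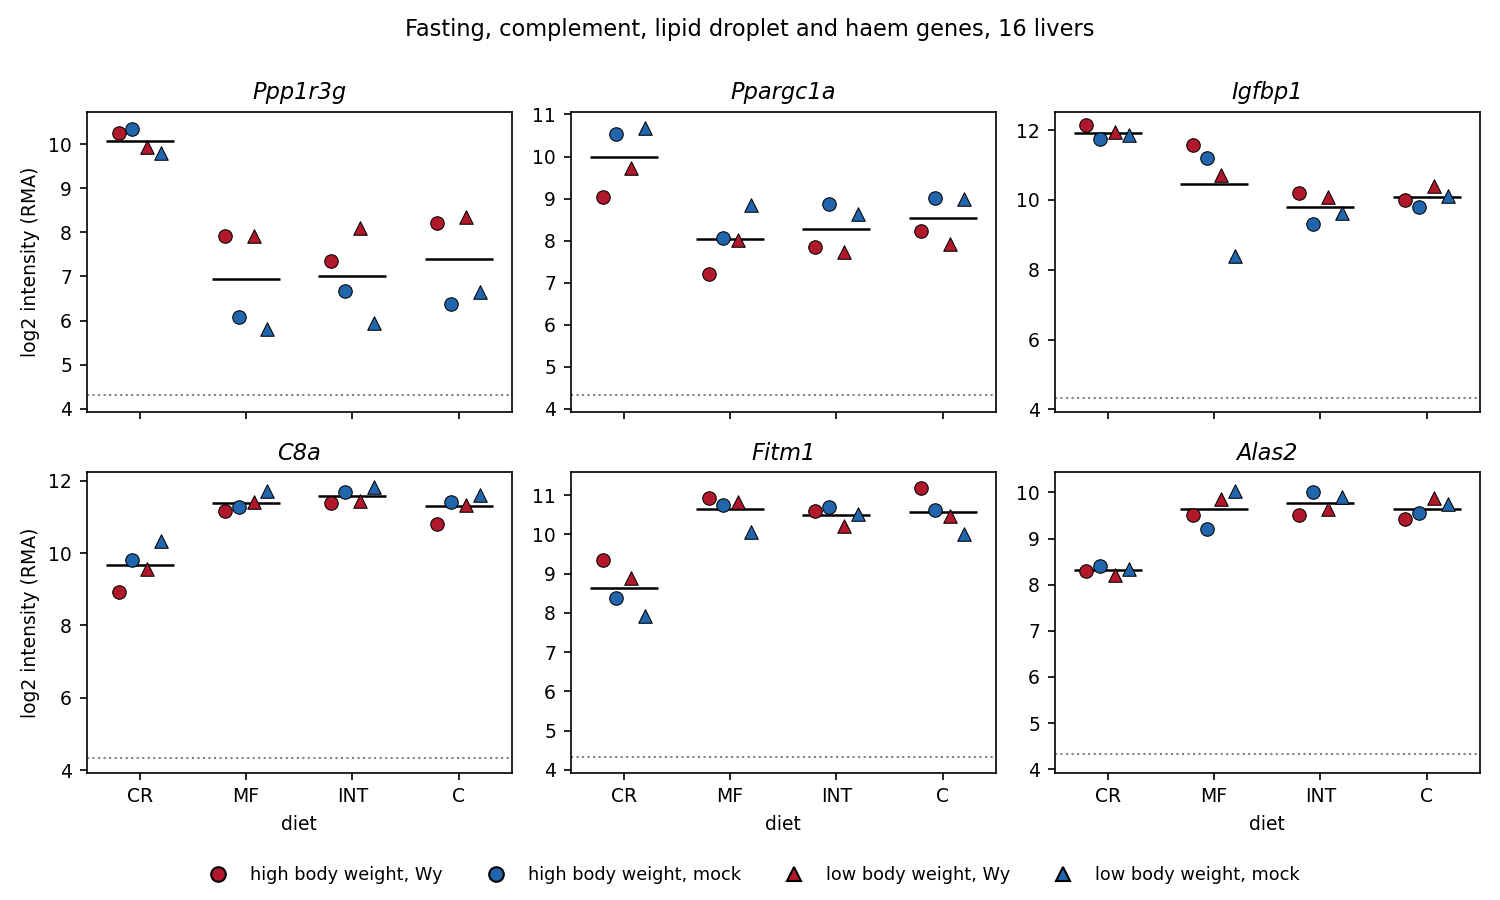
Log2 intensity of 6 genes in each of 16 livers by diet, with symbols, colours, bars and dotted line as in the plot of the sex-biased genes. The CR livers lie above all C livers for Ppp1r3g, Ppargc1a and Igfbp1 and below all of them for C8a, Fitm1 and Alas2, as the points and the bars for the diet means show.

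Fat oxidation genes were called at about the share of all genes (10.5%). Of 16 mitochondrial oxidation and ketogenesis genes, 0 were higher and 1 lower, Cpt1a, the carnitine gate of the mitochondrion (-0.35 ± 0.08, adjusted p = 0.0113). Of 19 peroxisomal and microsomal genes, 0 were higher and 2 lower, among them Vnn1, a PPARα-induced pantetheinase, which read 11.73 and 11.61 in Wy and 10.32 and 8.72 in mock CR livers, against 12.40 and 12.02 in Wy and 11.84 and 11.19 in mock C livers (-1.27 ± 0.32; adjusted p up to 0.0753 without the high or the low C mock liver). Ppara (-0.22 ± 0.10) and the fasting-induced kinase Pdk4 (0.73 ± 0.40) were not called. Of 31 droplet and triglyceride genes, 2 were higher and 8 lower, and 28 of 31 had a negative sign, with a median of -0.29. Fitm1, which partitions fat into droplets, read 8.38, 9.34, 7.92 and 8.90 in CR livers against 10.63, 11.19, 10.00 and 10.46 in C livers (-1.94 ± 0.18, 3.83-fold lower, adjusted p = 7.84e-05), with similar changes among high and low body weight mice (-2.05 and -1.82). The intestinal-type fatty acid binding protein Fabp2 did likewise (-1.05 ± 0.13, with -1.03 and -1.08), and the monoglyceride lipase Mgll fell by 0.57 ± 0.11. The droplet fusion proteins Cidea and Cidec and the monoacylglycerol acyltransferase Mogat1, which rise in fatty liver, were highest in the heavy C mice. Cidea was at 4.17 to 4.37 in all CR livers, against 7.81 and 9.86 in high and 4.57 and 6.36 in low C livers (-2.87 ± 0.71, adjusted p = 0.0204). Its change was -4.63 among high and -1.10 among low body weight mice, and those of Cidec and Mogat1 were -3.65 and -1.68, and -2.40 and -0.76. Without any 1 of the 4 high body weight livers Cidea was no longer called (adjusted p up to 0.0721), and Cidec lost its call without the high CR Wy or the high C mock liver (up to 0.0551). Mogat1 was not called without the body weight term (adjusted p = 0.0564). The summed intensity of the 5 tested genes of the adipocyte list was 5347 to 8157 in CR and 8456 to 9813 in C livers. Such a sum is led by its most abundant members. Only 1 of the 5, Car3, was called (lower), and the list's median change was -0.05 log2. What part adipocytes had in these values was not tested. The droplet coat genes Plin2 (-0.30 ± 0.11) and Plin5 (-0.01 ± 0.23) and the fatty acid transporter Cd36 (-0.14 ± 0.24) were not called. The phosphatidate phosphatases Lpin1 and Lpin2 were the 2 that were higher, by 0.97 ± 0.25 (lost without any 1 of 6 livers, adjusted p up to 0.0748) and 0.53 ± 0.09.

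Transporters and enzymes for bile acids, drugs and retinoids moved in both directions. Of 24 bile acid genes 3 were higher and 4 lower, beside 10.5% of all genes called. Slc51b, a subunit of the exporter that returns bile acids to the blood, was higher by 1.42 ± 0.24, with 6.51, 7.18, 7.39 and 5.76 in CR livers against 5.13 to 5.48 in C livers. The uptake transporter Slco1a4, a female-leaning relative of Slco1a1, was higher by 1.07 ± 0.20, whereas the exporter Abcc3 (-0.61 ± 0.11), the synthesis enzyme Hsd3b7 (-0.62 ± 0.11) and Nr1h4, which codes for the bile acid receptor FXR (-0.41 ± 0.07), were lower. The rate-setting enzyme Cyp7a1 (0.75 ± 0.71) and Cyp8b1 (0.07 ± 0.36) varied widely and were not called. Among 18 drug metabolism genes 4 were higher and 1 lower, led by Cyp2c39, a retinoic acid hydroxylase (1.17 ± 0.14), and Cyp2c38 (0.98 ± 0.14), neighbouring P450 genes whose probes may not separate them fully. Aldh1a1, which makes retinoic acid, fell by 0.58 ± 0.08, and Cyp3a11 was not called (0.23 ± 0.08, adjusted p = 0.0791). The glutathione transferase Gsta4 was 0.91 ± 0.19 higher. Rarres1, a retinoid-responsive carboxypeptidase inhibitor, was among the deepest falls and had one of the smallest p of all genes, at 6.89, 5.77, 5.93 and 6.75 in CR livers against 10.24, 9.69, 9.77 and 10.00 in C livers (-3.59 ± 0.27, 12-fold lower, adjusted p = 1.37e-05). Cyp26a1, which breaks down retinoic acid and is induced by it, read 6.39, 9.19, 5.70 and 7.05 in CR livers and 5.12, 4.49, 5.68 and 4.45 in C livers. The high CR Wy liver alone was above 9, and the call (2.15 ± 0.61, adjusted p = 0.0387) was lost without any 1 of 5 livers (adjusted p up to 0.105). The retinol dehydrogenase Rdh11 was 1.16 ± 0.20 higher, 1.72 among high and 0.60 among low body weight mice.

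Several of the largest changes came from genes outside the lists. Sytl5, a vesicle tethering protein, read 8.41, 8.23, 8.80 and 7.64 in CR livers against 5.72, 5.03, 5.60 and 5.20 in C livers (2.89 ± 0.27, 7.39-fold). The nicotinic receptor subunit Chrna4 was 2.02 ± 0.45 higher (adjusted p = 0.0502 without the high C mock liver), the magnesium transporter Nipal1 1.83 ± 0.22 and the ephrin Efna3 1.86 ± 0.29. The sodium-calcium exchanger Slc8a1 was near the filter in CR livers, at 4.47, 4.55, 4.81 and 4.93, against 7.37, 7.27, 7.33 and 7.84 in C livers (-2.76 ± 0.42). Med12l, a Mediator subunit, had the smallest p of the higher genes, at 5.90 to 6.48 in CR livers against 4.82 to 5.24 in C livers (1.23 ± 0.09, adjusted p = 1.37e-05).

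The complement genes called lower included genes of the late steps. C6 and C8a code for parts of the membrane attack complex. C8a read 9.81, 8.93, 10.34 and 9.57 in CR livers against 11.40, 10.81, 11.62 and 11.33 in C livers (-1.63 ± 0.12, 3.09-fold, adjusted p = 1.38e-05). C6, a male-enriched gene in mice, read 8.94, 8.55, 9.10 and 8.93 against 10.53, 9.92, 10.84 and 10.43 in C livers (-1.55 ± 0.12). C8b, another late component and a member of the male-enriched list, fell by 0.91 ± 0.21 (adjusted p = 0.0142). C9 fell by 0.82 ± 0.18 (adjusted p = 0.0642 on the 8 CR and C arrays alone), the early component C2 fell by 0.42 ± 0.08 and coagulation factor F11 fell by 0.94 ± 0.18. Over the 20 complement and coagulation genes of the list, which holds neither C6 nor C8b, 1 was higher and 4 lower, beside 10.5% of all genes called. Of 22 acute phase genes 0 were higher and 2 lower, beside the same 10.5% of all genes. Saa4 fell by 0.56 ± 0.13 and Orm3 fell by 2.19 ± 0.57 (lost without any 1 of 5 livers, adjusted p up to 0.0951). Saa2 (-2.72 ± 0.98, adjusted p = 0.096) and Lcn2 (-2.02 ± 0.80, adjusted p = 0.13) were not called. Lcn2 did not overlap all the same, with 8.05, 8.36, 9.90 and 8.74 in CR livers against 11.49, 10.81, 9.98 and 10.84 in C livers.

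Few markers of other liver cell types were called, where 10.5% of all genes were. Of 10 Kupffer cell markers 0 were called, with Clec4f at 0.04 ± 0.14, and so were 0 of 9 T and NK cell, 0 of 5 neutrophil, 0 of 5 bile duct and 0 of 9 proliferation genes. Of 6 tested MHC class II genes 3 were lower and 0 higher. H2-Aa read 8.55 and 9.21 in high and 9.04 and 9.04 in low CR livers, against 10.64 and 10.96 in high and 9.46 and 9.31 in low C livers. H2-Aa (-1.13 ± 0.30), H2-Ab1 (-1.19 ± 0.35) and H2-Eb1 (-1.17 ± 0.34) were called, and each lost the call on leaving out any 1 of the 4 high body weight livers (adjusted p up to 0.0949, 0.143 and 0.137, H2-Ab1 also without the low CR mock or the low C Wy liver and H2-Eb1 without the low CR mock liver). H2-Ab1 and H2-Eb1 were also not called with combinations of treatment and body weight class as a block (adjusted p = 0.0572 and 0.055), nor any of the 3 on the 8 CR and C arrays alone (adjusted p = 0.0661 for H2-Aa, 0.072 for H2-Ab1 and 0.079 for H2-Eb1). Their partner Cd74 was not called (-0.85 ± 0.33, adjusted p = 0.12). The summed intensity of the 6 genes was 1453 to 2312 in CR livers and 2472 to 7561 in C livers. For 12 markers of recruited macrophages, of which 0 were higher and 1 lower, it was 2028 to 2464 in CR and 1950 to 2585 in C livers, and for 6 B and plasma cell genes, of which 0 were higher and 2 lower, 168 to 239 and 208 to 485. What part cell numbers had in these genes was not tested. The B cell gene Cd79b fell by 0.77 ± 0.21 (lost without any 1 of 5 livers, adjusted p up to 0.0989), and the fibrillar collagen Col1a1 fell by 0.42 ± 0.10 (lost without any 1 of 3 livers, adjusted p up to 0.0647). Alas2, the erythroid form of the first haem enzyme, read 8.40, 8.30, 8.33 and 8.20 in CR livers against 9.55, 9.43, 9.74 and 9.88 in C livers (-1.34 ± 0.14, 2.54-fold lower, adjusted p = 0.000163), 1 of only 2 erythroid genes tested. Their summed intensity was 326 to 378 in CR and 731 to 977 in C livers, and the part of blood in the tissue was not tested. Zonation markers were divided. Near the central vein, Glul stood at 0.00 ± 0.06 and the Wnt-dependent receptor Lgr5 at 0.04 ± 0.21, and the ammonium transporter Rhbg fell by 1.22 ± 0.16, although INT livers were also 1.08 and MF livers 0.52 below C for this gene. Near the portal vein Cyp2f2, also counted among the male-enriched genes, fell by 0.62 ± 0.10. Etnppl was higher by 1.25 ± 0.31 (lost without any 1 of 4 livers, adjusted p up to 0.0681). Of 16 genes near the central vein 0 were higher and 4 lower, and of 8 near the portal vein 3 were higher and 2 lower. Of 27 respiratory chain genes 0 were called.

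The remaining lists are given by their counts, beside 4.54% of all genes higher and 5.98% lower. Of 20 genes of glutathione and the NRF2 response 4 were higher, Gsta4 among them, and of 14 of the integrated stress response 3 were higher, with 0 lower in both. Of 17 glucocorticoid and FOXO targets 3 were higher and 0 lower. Of 20 genes of NAD metabolism, sirtuins and autophagy 0 were higher and 3 lower, and of 16 amino acid transporters 3 were higher and 1 lower. Among 7 urea cycle genes 1 was higher, among 12 of one-carbon metabolism 1 was higher and 1 lower, and among 13 apolipoproteins 1 was higher and 1 lower. In heat shock (11 genes), endoplasmic reticulum chaperone (10), SLC22 transporter (9, without Slc22a26 and Slc22a27), annexin (11) and adipocyte (5) lists 0 were higher and 1 lower in each, in the stellate cell list (18) 0 were higher and 2 lower, and in the sinusoidal endothelial list (12) 1 was higher. Of 13 interferon-induced genes 0 were called, with a median change of -0.98 among high body weight mice and 0.00 among low ones, and of 12 chemokines and 2 pancreatic acinar genes 0 were called. Of 12 genes that the study itself had picked for these mice, 0 were higher and 3 lower (Cidea, Cidec and Mogat1), and this list is not independent of them.

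Whether the CR effect differed with treatment was tested as the change in Wy mice minus that in mock mice. In limma 0 of 14275 genes were called (351 with an unadjusted p under 0.05, smallest adjusted p = 1). CR minus C alone gave 160 calls in Wy mice (1.12%), 86 higher (0.602%) and 74 lower (0.518%), and 297 in mock mice (2.08%), 120 higher (0.841%) and 177 lower (1.24%), with 2 livers of each diet behind each. The neutral amino acid transporter Slc1a4 had the smallest p of these differences, at 5.35 and 5.60 in Wy and 5.89 and 6.42 in mock CR livers, against 7.62 and 7.18 in Wy and 6.12 and 5.81 in mock C livers, a CR change of -1.93 in Wy and 0.19 in mock mice.

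The CR effect differed with body weight class in 2 genes (0.014%), with 1234 at an unadjusted p under 0.05. Uap1l1, a relative of UDP-N-acetylglucosamine pyrophosphorylase, read 6.33 and 6.34 in high and 6.49 and 6.43 in low CR livers, against 7.79 and 7.72 in high and 6.50 and 6.38 in low C livers. Its change was -1.42 among high and 0.02 among low body weight mice (adjusted p = 0.0011 for the difference). Anxa2, a calcium-dependent membrane-binding protein, read 7.12 and 6.93 in high and 7.14 and 7.65 in low CR livers, against 8.66 and 8.87 in high and 7.17 and 7.34 in low C livers, with changes of -1.74 and 0.14 (adjusted p = 0.00835). In both the light C livers lay with CR and the heavy C livers above them. The heavy MF livers lay near the heavy C livers, at 7.63 and 7.53 for Uap1l1 and 9.11 and 9.00 for Anxa2, while the light MF and all INT livers read 6.32 to 6.61 and 6.98 to 7.44. Anxa2 lost this call without any 1 of the 4 C livers (adjusted p up to 0.0962), and on the 8 CR and C livers alone neither was called (adjusted p = 0.0547 for Uap1l1 and 0.079 for Anxa2). High body weight mice gave 1077 calls for CR minus C (7.54%), 396 higher (2.77%) and 681 lower (4.77%). Low body weight mice gave 311 (2.18%), 160 higher (1.12%) and 151 lower (1.06%). Among droplet genes the list median was -0.47 in high and -0.12 in low, among MHC class II genes -1.87 and -0.17, and among female-enriched genes 0.50 and 1.43. Rarres1 (-3.64 and -3.54), C8a (-1.73 and -1.52), Sytl5 (2.95 and 2.82) and Nipal1 (1.81 and 1.85) had fitted changes of like size in both classes.

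**Figure D5:**
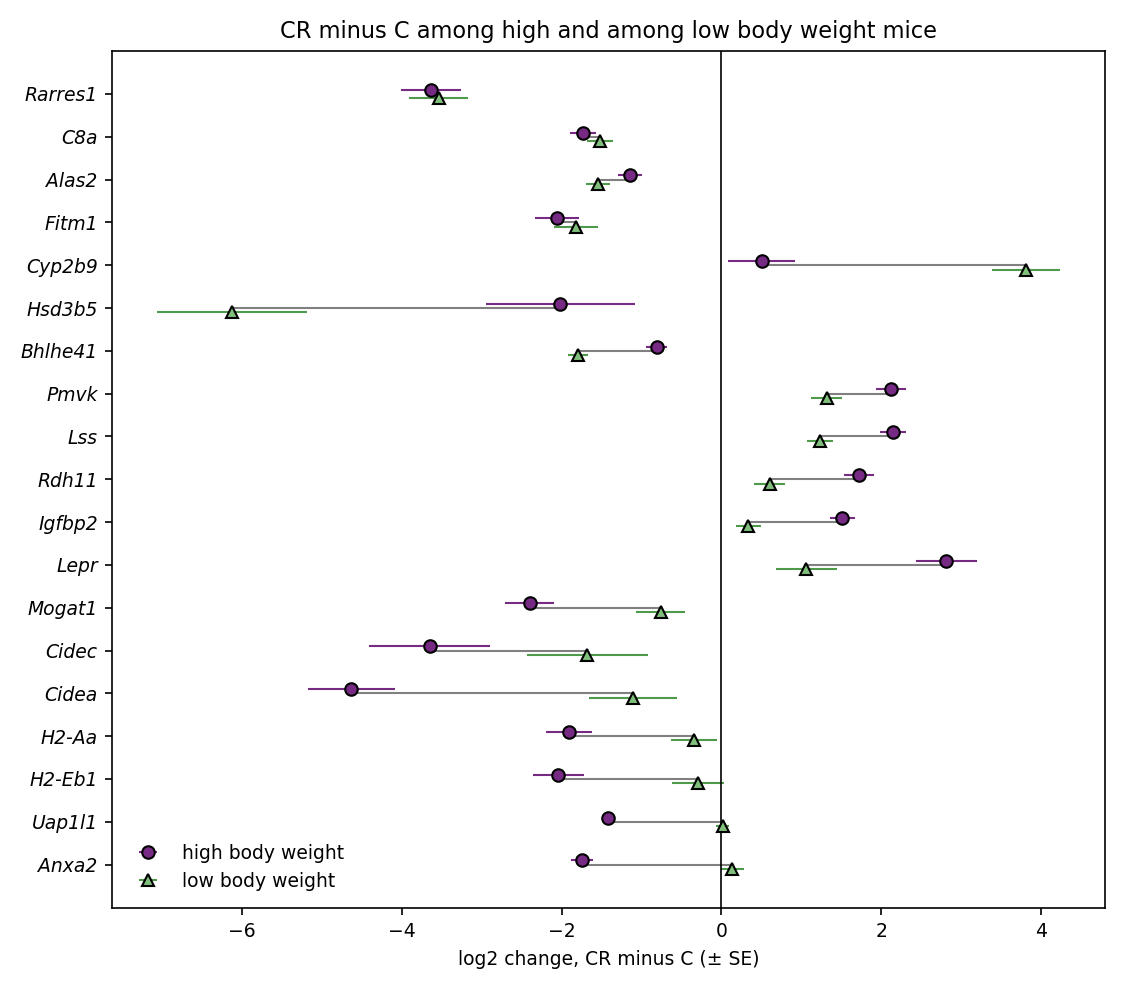
Log2 change in CR minus C with its standard error among high (circles) and among low (triangles) body weight mice for 19 genes. The 2 values lie together for Rarres1, C8a and Fitm1, the low body weight value lies further from 0 for Cyp2b9 and Hsd3b5, and the high body weight value lies further from 0 for Cidea, H2-Aa, Uap1l1 and Anxa2.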

How the data were processed

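RNA of 16 livers was hybridised to Affymetrix Mouse Gene 1.1 ST arrays, 1 mouse per array. The authors deposited log2 intensities after background correction, normalization and summarization by RMA (its version: not given in the sources used here), over 35556 transcript clusters. Depth does not apply to arrays, and the number of mice limits the precision. Array medians lay between 5.53 and 5.59 log2, and the 8 CR and C arrays correlated at 0.982 to 0.994. Clusters were named through the platform annotation, with 21218 holding 1 gene, 1881 several and 12457 not in the annotation, which were left out with those of several genes. Where a gene had several clusters, that of the highest mean stood for it. Genes with an intensity above 20 (4.32 log2) on at least 5 arrays were tested, 14275 of 18820.

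limma 3.58.1 in R 4.3.3 was fitted over all 16 arrays with diet, treatment and body weight class as terms (10 residual degrees of freedom), and with diet by treatment or diet by body weight interactions (7), with Benjamini-Hochberg adjustment over all tested genes. Labels do not say that mice came from separate cages or batches, so p-values measure the spread between these mice. The 51 gene lists, the members and the tests were chosen with earlier results of these data known. Named genes were the 12 highest and 12 lowest called changes with the same direction in 4 of 4 matched comparisons, up to 8 called members per list and direction with marked key members, the 4 smallest p of an interaction without calls, and the 2 smallest p per direction. Acss2, Fdft1, Msmo1 and Nsdhl, all called higher, were added after their values were seen. Uncalled members such as Mvk, Tm7sf2 and Ebp were not added. C8b and Car3 are mentioned outside the counts of named genes. On simulated data of 14275 genes with 200 changed, CR minus C recovered 80.6% of 1.5-fold, 92.5% of 2-fold and 100% of 4-fold changes and called 9 unchanged genes. Diet, treatment and body weight effects were additive there, and the noise was normal and independent between genes. These shares need not hold for the real livers, so a gene that was not called is not shown to be unchanged. Settings tried were other samples, filters, cluster means, centring, limma options, blocks and leaving out each array. Promoters came from RefSeq (GRCm38.p6), searched with Python 3.11.15.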

Additional observations from a re-analysis of the deposited data

Results flagged for a closer look

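Among 320 groups of 4 livers, CR or C, of the genes named in the text, a lone highest or lowest liver stood apart from the other 3 in 8 cases (2.5%), measured as its gap to the nearest liver over the range of all 4. For 4 independent values of 1 normal spread, chance gives this in about 1 in 20 groups. The groups here mix treatments and weight classes and reuse the same 8 livers. That rate therefore does not apply directly, and no conclusion is drawn from it. The low CR mock liver was the one in 3 cases, the highest for Noct (gap share 0.955, 9.48 against 8.85 to 8.88) and for G6pc (0.935, 13.06 against 12.87 to 12.88) and the lowest for Tkfc (0.888, 11.88 against 12.09 to 12.12). The high CR mock liver was the lowest for Med12l (0.915, 5.90 against 6.43 to 6.48) and for Cd74 (0.852, 8.76 against 9.45 to 9.57). The low CR Wy liver was the lowest for Cyp51 (0.852, 10.06 against 10.61 to 10.70). Among C livers the high Wy one was the lowest for Hsd3b7 (0.895, 10.83 against 10.97 to 10.98) and the low mock one for Cpt1a (0.861, 12.39 against 12.44 to 12.45).

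CR minus C differed between high and low body weight mice by -1.44 log2 for Uap1l1 and by -1.88 for Anxa2 in limma's interaction term.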

How the results depend on the processing

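Called genes for CR minus C numbered 160 (86 higher, 74 lower) in Wy mice only, 297 (120 and 177) in mock mice only, 1077 (396 and 681) in high body weight mice only and 311 (160 and 151) in low body weight mice only, all with fewer mice. Leaving out 1 array gave 884 to 1497 calls (369 to 624 higher, 474 to 873 lower), with 884 without the high C mock, 914 without the high CR Wy, 930 without the low C Wy, 947 without the high C Wy and 980 without the low C mock liver. Other settings gave 1204 to 1584 calls. The body weight interaction had 1 call on the 8 CR and C arrays alone and 1 to 7 on leaving out 1 array, with 7 without the low CR Wy, 4 without the high CR Wy and 1 without each C liver. The treatment interaction had 0 in every setting. Of 115 named genes that were called, 95 kept the call in all 10 settings over the whole series and 86 in every leave-one-out. No called gene changed direction. Matching mice by combinations of treatment and body weight class as a block gave 1396 calls, and Ghr, H2-Ab1 and H2-Eb1 were no longer called (adjusted p = 0.055 to 0.0592). A random block for mice of like weight within a diet, chosen after seeing the data, gave 1204 (correlation within pairs 0.0741), without Cux2, Cyp26a1, Ghr, Gys2, H2-Ab1 and H2-Eb1 (0.0552 to 0.0682). The 8 CR and C arrays alone lost 16 named calls (0.0525 to 0.105), among them C9, Mup20, Lpin1, Vnn1, Cidea and Cyp2b9, and the fit without the body weight term 12, among them Mogat1 (0.0564), Col1a1 (0.147) and Cyp2b9 (0.222). Without the 2 INT arrays of the other array code prefix, CR minus C gave 1537 calls. There 4 named calls were lost (Cux2, Cyp26a1, Cyp2b9 and Ghr). The labels carry no replicate numbers by which to pair mice. A comparison of protein sequences was not run.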
